A study of Mus musculus with 7 samples.

Results

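The genes described here are 34 genes of the lysosome and of autophagy, chosen by symbol from a table of 19649 genes. They were 16 genes of lysosomal proteins, 16 genes of the autophagy machinery, and Tfeb and Tfe3, which encode transcription factors of both systems. All 34 were in the table, and all 34 passed the filter on low values that left 16047 genes for testing. They were measured by RNA sequencing of long-term haematopoietic stem cells sorted from mice, in 4 libraries labelled Calr +/+ (Calr wildtype) MxCre and 3 libraries with the label Calr fl/fl (Calr del52/del52) MxCre. Every animal carried MxCre, a Cre recombinase driven by the interferon-responsive Mx1 promoter, and every animal received pI:pC, a double-stranded RNA mimic that induces it. The strain label of both groups was a CALR knockin crossed with MxCre expressing mice. The cells were collected 14 days after induction began, by absence of lineage markers and CD48 and presence of Kit, Sca-1 and CD150. The del52 allele alters the C terminus of calreticulin, an endoplasmic reticulum chaperone that binds calcium, and mutations of this type occur in myeloproliferative neoplasms. No drug was given, and the sources used here state neither the age of the mice nor how many went into a library. The Calr +/+ libraries are called control 1 and 2 (titles Mx1_Cre1 and Mx1_Cre2) and control 3 and 4 (titles Mx1_Cre6261 and Mx1_Cre6266). The mutant libraries are called mutant 1 (DEL52_6244), mutant 2 (DEL52_6246) and mutant 3 (DEL52_OT1865).

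Lysosomes are acidic organelles in which proteases, glycosidases and lipases break down proteins, sugars and lipids that arrive by endocytosis or by autophagy. In autophagy a double membrane forms around cytoplasmic cargo. ULK kinases and a lipid kinase complex with beclin start it, ATG enzymes couple ATG8 proteins to a membrane lipid, receptors bind the cargo, and the closed vesicle fuses with a lysosome. TFEB and TFE3 bind a short DNA element found in many lysosomal promoters, and autophagy is known to help maintain long-lived blood stem cells.

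The reads counted were 21325340 to 28710304 per library, and the control libraries did not form a uniform group. Control 3 and 4 differed from control 1 and 2 at 4749 genes that were higher and 4061 that were lower (limma, adjusted p below the threshold of 0.05), or 29.6% and 25.3% of the genes tested. Relative to each gene's mean over the 7 libraries, values in control 3 and 4 rose with exonic length, by 0.242 and 0.244 on the log2 scale per doubling. Each such slope is relative to the other libraries and is not a slope of the library on its own. The slopes in control 1 and 2 were -0.0981 and -0.108, and those in the mutant libraries lay between -0.175 and 0.0104. Each result is therefore given against each control pair and against all 4 libraries. Calr had 15922 to 18606 normalized counts in the control and 14239 to 15724 in the mutant libraries, a weak check of the labels because the allele changes the coding sequence. All 10 stem cell markers on the list used were present, with summed normalized counts of 48897 to 87679 in the control and 45689 to 54602 in the mutant libraries. The sum hides unlike markers: 5 were higher and 4 lower in control 3 and 4 than in control 1 and 2 (limma adjusted p under 0.05). Kit was 6.30-fold higher there, and Ly6a stood at 0.422 of its level in control 1 and 2. Against control 3 and 4, 3 markers were higher and 4 lower in the mutant libraries, beside 19.7% and 22.8% of all genes tested. Nothing in the labels says that libraries came from separate animals, so p-values measure the spread between these libraries, which may be technical. In bulk RNA, fewer cells of a type and less RNA per cell cannot be told apart. The libraries were unstranded, so reads of a member and of a gene overlapping it on the other strand cannot be told apart. How reads shared by related genes, such as the ATG8 family, were assigned is not stated in the sources used here.

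The element bound by TFEB and TFE3 has CACGTG as its core and TCACGTGA as a longer form. Both are palindromes, so a search of one strand covers both strands, and every TCACGTGA holds a CACGTG. RefSeq promoter windows (GRCm38.p6, 250 bases before to 50 after a start) were given for 28 of the 34 members and not for Becn1, Atg12, Map1lc3a, Atg16l1, Ctsb and Npc1. CACGTG occurred in a window of 7 of these 28 members, or 25%, against 8.09% of all 27025 genes with a window and 11.7% of the tested genes. TCACGTGA occurred in 3 members (10.7%) and in 304 of the 27025 genes. Of the lysosomal members 5 of 14 held CACGTG (Ctsa, Ctsd, Ctsl, Lamp1 and Mcoln1), and of the autophagy members 2 of 12 (Atg5 and Atg7). The stretches of 80 bases below are from the 3 members with TCACGTGA, from Lamp1, whose window holds CACGTG 4 times, and, for contrast, from Map1lc3b, the member with the smallest unadjusted p against all control libraries, whose window holds neither form. Capitals mark TCACGTGA or, where only the core is present, CACGTG.
Ctsa, chr2:164833693-164833772, plus strand, 80 to 1 bases before the second RefSeq start: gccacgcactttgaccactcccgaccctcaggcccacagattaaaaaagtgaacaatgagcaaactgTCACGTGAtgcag
Ctsd, chr7:142387883-142387962, minus strand, 135 to 56 bases before the start: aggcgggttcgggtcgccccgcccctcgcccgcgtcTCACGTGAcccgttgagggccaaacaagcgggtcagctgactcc
Mcoln1, chr8:3500437-3500516, plus strand, 82 to 3 bases before the start: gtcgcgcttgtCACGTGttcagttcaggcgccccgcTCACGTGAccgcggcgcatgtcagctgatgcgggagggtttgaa
Lamp1, chr8:13159064-13159143, plus strand, 97 to 18 bases before the start: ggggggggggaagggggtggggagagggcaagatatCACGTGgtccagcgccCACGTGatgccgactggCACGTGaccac
Map1lc3b, chr8:121590358-121590437, plus strand, 80 to 1 bases before the start: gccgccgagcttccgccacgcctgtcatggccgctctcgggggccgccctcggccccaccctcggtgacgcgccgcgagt
In the GENCODE annotation of the same build, the spans of Ctsa, Ctsd, Mcoln1 and Map1lc3b begin upstream of these RefSeq starts, so all or part of these 4 stretches lies inside the annotated gene. A match describes letters only, and its absence from a window says nothing about the factors.

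Across all 7 libraries no member passed the test of mutant against control, but 7 members had groups that did not overlap. Of all genes tested, 0% passed (limma on log2 values, 0 of 16047), 5.23% had every mutant library above every control library, and 4.34% had every mutant library below. Among the 34 members, 6 lay above, Ctsa, Ctsd, Npc2, Map1lc3b, Gabarapl1 and Atg12, and 1 lay below, Optn. EdgeR and DESeq2 also called 0 members against all control libraries. An unadjusted limma p under 0.05 was found for 5 of the 34 members, beside 1365 of the 16047 genes tested. With 1 library left out the count above ranged from 6 to 12 members. It was 12 without control 1, beside 8.31% of all genes, and 9 without mutant 2, beside 15.0%. Without control 3 and without control 4 it was 6, beside 6.26% and 6.30%. In a fit chosen after seeing the data, the series of the titles (control 3 and 4 with mutant 1 and 2, and the other 3 libraries) was added as a term. There Ctsl, Npc2, Map1lc3b, Gabarap and Gabarapl2 rose and Tfe3, Ulk2 and Atg16l1 fell, 5 and 3 members beside 9.96% and 12.5% of all genes (limma adjusted p = 0.0258 to 0.0387). No member was called in that fit without control 3, control 4, mutant 1 or mutant 2, beside 0%, 0%, 2.75% and 1.88% of all genes. There were 4 members called without control 1, 3 without control 2 and 14 without mutant 3. The shares of all genes in these fits were 17.2%, 13.6% and 41.7%. Over the 34 members the log2 difference without that term was above 0 for 22, with a median of 0.10, while over all genes the median was 0.000404. Lysosomal and autophagy members had much the same median, 0.11 with 12 of 16 above 0 and 0.12 with 10 of 16 above 0.

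**Figure D1:**
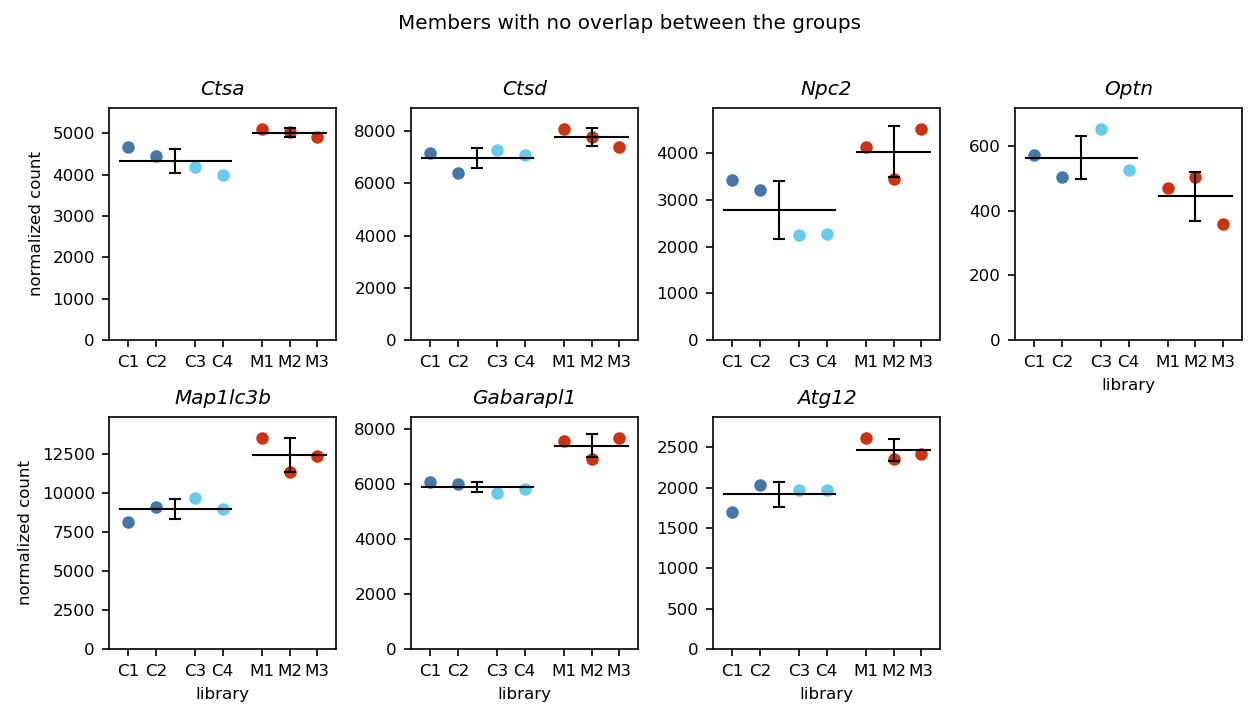
Normalized counts of the 7 members whose groups did not overlap, in control 1 to 4 (C1 to C4) and mutant 1 to 3 (M1 to M3); points are libraries, lines are group means and bars are SD over 4 control or 3 mutant libraries. Map1lc3b, at 8112 to 9665 in the control and 11348 to 13518 in the mutant libraries, is the member with the smallest unadjusted p, and Optn is the member whose mutant libraries lie below.

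In the ATG8 family all 5 members had log2 differences above 0 in each comparison with control, apart from Map1lc3a, which was at 0.01 against control 3 and 4 and at -0.0032 there with TMM scaling. These small ubiquitin-like proteins are coupled to the growing membrane and bind the cargo receptors. Map1lc3b (ENSMUSG00000031812), which encodes LC3B, lies on chromosome 8, 121590361 to 121598760, on the plus strand of GRCm38, the chromosome that also carries Calr at 84841850 to 84846934. It had 8112, 9066, 9665 and 8935 normalized counts in control 1 to 4 and 13518, 11348 and 12324 in mutant 1 to 3. The lowest mutant library was above the highest control library, and the control pairs were close to each other. Control libraries averaged 8945 ± 639 (SD, n = 4) and mutant libraries 12396 ± 1087 (SD, n = 3), a ratio of 1.39. The log2 difference was 0.47 (SE 0.15) against all control libraries, with an unadjusted p of 0.0137 and an adjusted p of 0.538 from limma. Against control 1 and 2 it was 0.53 (SE 0.16, limma adjusted p = 0.268), and against control 3 and 4 it was 0.41 (SE 0.15, limma adjusted p = 0.0538). Mutant 3 alone differed from control 1 and 2 by a log2 value of 0.52 (SE 0.14, limma adjusted p = 0.0342), a comparison with 1 library in an arm, which is taken to vary as the control libraries do. In that comparison 6.37% of all genes passed, and Map1lc3b and Npc1 were the 2 members that did, both higher.

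Gabarapl1, a member of the GABARAP branch, had 6077, 5979, 5672 and 5802 normalized counts in control 1 to 4 and 7563, 6891 and 7668 in mutant 1 to 3. Its control libraries spanned a narrow range with every mutant library above it, and the log2 differences were 0.32 (SE 0.14) against all control libraries, 0.29 (SE 0.15) against control 1 and 2, and 0.36 (SE 0.14) against control 3 and 4. Their adjusted p from limma were 0.538, 0.579 and 0.065.

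Gabarap had 4464, 4572, 3277 and 3142 normalized counts in the control and 5425, 3960 and 6054 in the mutant libraries. Gabarapl2 had 1320, 1340, 788 and 822 in the control and 1686, 1155 and 1745 in the mutant libraries. In both genes mutant 1 and 3 were the highest libraries, mutant 2 lay below control 1 and 2, and control 3 and 4 were the lowest. Both rose against control 3 and 4, Gabarap by 0.66 (SE 0.19, limma adjusted p = 0.0258) and Gabarapl2 by 0.90 (SE 0.21, limma adjusted p = 0.01) on the log2 scale, and neither passed against control 1 and 2 (log2 0.17 and 0.18). Map1lc3a, which encodes LC3A, had 841 to 1142 normalized counts in the control and 1002 to 1122 in the mutant libraries. Its groups overlapped against control 3 and 4, and its log2 difference from control 1 and 2 was 0.27.

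Per length, ATG8 transcripts were among the most abundant of the members. In FPKM, which divides reads by transcript length, the family summed to 488, 528, 446 and 434 in control 1 to 4 and to 664, 529 and 685 in mutant 1 to 3. Every mutant library was above every control library, but mutant 2 exceeded control 2 by less than 1 percent of the sum. These FPKM were not scaled to a common total. Over all transcripts FPKM totalled 621873, 625447, 464615 and 466064 in control 1 to 4 and 630476, 550983 and 728004 in mutant 1 to 3. Both the totals and the family sum were lowest in control 3 and 4 and highest in mutant 3. Taken as a share of these totals, the family sum did not separate the groups, because mutant 3 lay below control 3. That share was not tested further. Gabarap, Map1lc3b and Gabarapl1 each made up 25.2% to 32.4% of the family sum in every library. Map1lc3a made up 4.75% to 8.02% and Gabarapl2 5.58% to 8.37%, and the share of Gabarapl2 was 5.58% and 5.71% in control 3 and 4 and at least 6.46% elsewhere.

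**Figure D2:**
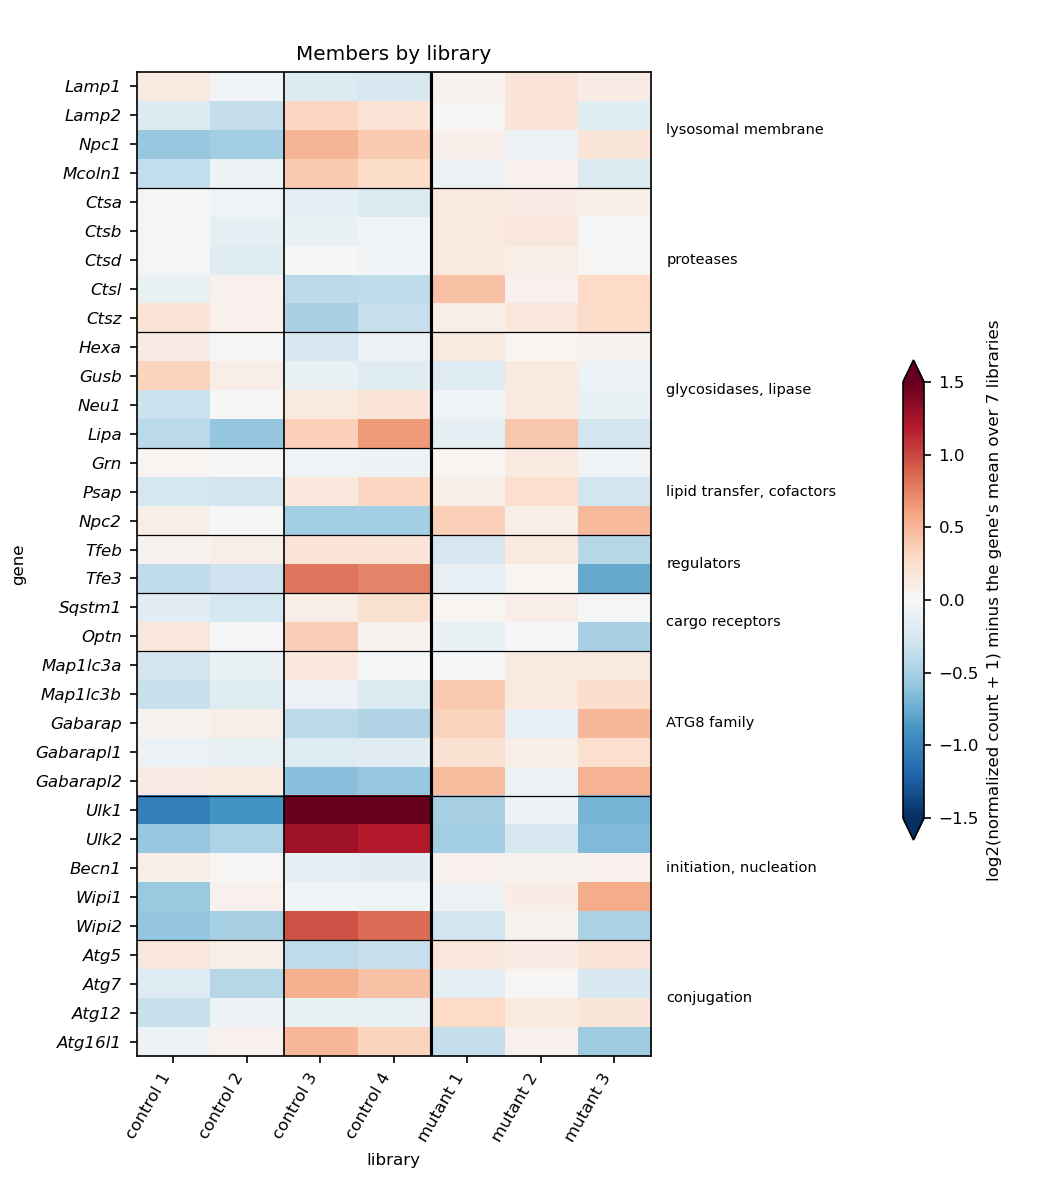
Each cell is the log2(normalized count + 1) of a member (rows, by role) in a library (columns) minus its mean over the 7 libraries; colours end at -1.5 and 1.5. The ATG8 family and the proteases are mostly above their means in the mutant columns, while Ulk1, Ulk2, Wipi2 and Tfe3 are far above their means in the control 3 and 4 columns.

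All 5 lysosomal proteases had log2 differences above 0 in each comparison with control, with medians of 0.22 against all control libraries, 0.18 against control 1 and 2, and 0.29 against control 3 and 4. Over all genes tested these medians were 0.000404, 6.24e-05 and -0.00437. Ctsa encodes cathepsin A, a carboxypeptidase that also protects other lysosomal enzymes. It had 4677, 4447, 4197 and 3995 normalized counts in the control and 5114, 5033 and 4918 in the mutant libraries. The mutant libraries were close together and all above control, by 0.22 (SE 0.14) on the log2 scale against all 4 (limma adjusted p = 0.539). Ctsd encodes cathepsin D, the major aspartic protease of lysosomes. It had 7161, 6416, 7274 and 7071 normalized counts in the control and 8094, 7794 and 7408 in the mutant libraries. The gap between the groups was small, and the log2 difference was 0.15 (SE 0.14, limma adjusted p = 0.602).

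Ctsl encodes cathepsin L, a cysteine protease, and had 1887, 2116, 1537 and 1556 normalized counts in the control and 2743, 2103 and 2479 in the mutant libraries. Mutant 2 was level with control 2, and the other mutant libraries were above all control libraries. Ctsl rose by 0.65 (SE 0.16) on the log2 scale against control 3 and 4 (limma adjusted p = 0.0135) and did not pass against control 1 and 2 (log2 0.28, SE 0.17, limma adjusted p = 0.652). Ctsz, which encodes cathepsin Z, a carboxypeptidase, had 5032, 4568, 3118 and 3428 normalized counts in the control and 4656, 4882 and 5296 in the mutant libraries. The mutant libraries overlapped control 1 and 2 and were above control 3 and 4, against which Ctsz rose by 0.59 (SE 0.14, limma adjusted p = 0.0118). Ctsb, which encodes cathepsin B, another cysteine protease, had 7766 to 8384 in the control and 8341 to 9602 in the mutant libraries, with log2 differences of 0.18 and 0.17 against the pairs.

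Lysosomal proteases are also abundant in granulocytes and macrophages, so markers of those cells are given here. The 10 neutrophil markers, none of them at 0 in every library, summed to 51433, 45081, 88703 and 50849 normalized counts in control 1 to 4 and to 49933, 10936 and 13218 in mutant 1 to 3. The sum was thus low in mutant 2 and 3 and within the control range in mutant 1. Against control 3 and 4, 5 of the 10 fell (Mpo, Ngp, Lcn2, Ltf and Camp) and 1 rose, beside 22.8% and 19.7% of all genes tested. Every mutant library was below every control library for Mpo, Ngp, Lcn2 and Ltf, as for 4.34% of all genes tested. Prtn3 was the 1 that rose (log2 0.74, limma adjusted p = 0.0435). It ran against the sum, with 2891 to 4841 in the control and 6639, 4266 and 6987 in the mutant libraries. The 10 monocyte and macrophage markers in the table (Marco and Cd5l were not in it) summed to 12230 to 15150 in the control and to 19652, 12738 and 16383 in the mutant libraries. Nearly all of that sum was Lyz2, at 11569 to 14160 in the control and 12072 to 18783 in the mutant libraries, and Adgre1, Mrc1 and Csf1r stayed at or below 74.8. Among the others, Ms4a6c had 718, 738, 298 and 343 in control 1 to 4 and 463 to 635 in the mutant libraries. Its mutant libraries were all below control 1 and 2, and it rose against control 3 and 4 (log2 0.76, limma adjusted p = 0.0177). F13a1 fell against control 3 and 4 (log2 -4.41, limma adjusted p = 0.0011). Ctsa, Ctsd, Ctsl, Map1lc3b and Atg12 were each highest in mutant 1, Ctsb in mutant 2, and Ctsz, Npc2 and Gabarapl1 in mutant 3. The part of these cells in the results was not tested.

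Npc2 had the largest log2 difference of the lysosomal members from all control libraries (0.55), but not with the length slope as a covariate, where it was 0.28 beside 0.48 for both Lipa and Npc1. It encodes a soluble protein that binds cholesterol in the lysosome and hands it to NPC1 in the membrane. Npc2 (chromosome 12, 84754562 to 84773152, minus strand) had 3431, 3204, 2239 and 2257 normalized counts in the control and 4125, 3450 and 4518 in the mutant libraries. Every mutant library was above every control library, though mutant 2 was close to control 1. The log2 difference was 0.55 (SE 0.22, limma adjusted p = 0.538) against all control libraries and 0.27 (SE 0.16, limma adjusted p = 0.652) against control 1 and 2. Against control 3 and 4 Npc2 rose by 0.83 (SE 0.16, limma adjusted p = 0.00588). The call was lost without control 3 or without control 4, fits that leave 1 library in that arm. The log2 difference from that pair was 0.75 to 0.94 over all alternatives.

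Npc1, the membrane cholesterol transporter, had 433, 452, 918 and 841 normalized counts in the control and 680, 606 and 726 in the mutant libraries. The mutant libraries fell between the control pairs, above control 1 and 2 by 0.60 (SE 0.18, limma adjusted p = 0.268) and below control 3 and 4 by a log2 difference of -0.39 (SE 0.17, limma adjusted p = 0.0888). Lipa, the acid lipase that frees cholesterol from its esters, had 851, 750, 1443 and 1752 normalized counts in the control and 1023, 1489 and 933 in the mutant libraries. Its mutant libraries were above control 1 and 2, mutant 2 overlapped control 3 and 4, and the log2 differences were 0.49 (SE 0.22) and -0.50 (SE 0.22), neither of which passed. The control pairs themselves differed in both genes, by 0.99 on the log2 scale with adjusted p from limma of 0.000163 for Npc1 and 0.000159 for Lipa. Without mutant 2, Npc1 and Map1lc3b passed against control 1 and 2, at log2 0.67 (limma adjusted p = 0.0306) and 0.59 (limma adjusted p = 0.0302).

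The other lysosomal members did not pass limma in any comparison with control, and DESeq2 called Lamp1 (adjusted p = 0.0441) and Mcoln1 (adjusted p = 0.0492) against control 3 and 4. Lamp1, which encodes an abundant glycoprotein of the lysosomal membrane, had 7836 to 10099 normalized counts in the control and 9567 to 10552 in the mutant libraries, with log2 differences of 0.08 and 0.34 against the pairs. Lamp2, a relative with an isoform that acts in chaperone-mediated autophagy, and Mcoln1, the calcium channel TRPML1, were above control 1 and 2 (log2 0.30 and 0.15) and below control 3 and 4 (log2 -0.25 and -0.40). Among the glycosidases, Hexa, which encodes the alpha subunit of beta-hexosaminidase, had log2 differences of 0.01 and 0.23 against the pairs, Gusb, the beta-glucuronidase, -0.26 and 0.10, and Neu1, the sialidase, 0.16 and -0.17. Grn, which encodes progranulin, lay between 6101 and 7064 normalized counts in all 7 libraries. Psap, the precursor of the saposins that help lipid hydrolases, had log2 differences of 0.29 and -0.22.

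Neither transcription factor gene rose in a comparison with control. Tfeb had 817, 835, 904 and 896 normalized counts in the control and 660, 865 and 581 in the mutant libraries. Mutant 2 lay within the control range and the others below it, and no comparison passed (log2 -0.32, SE 0.19, limma adjusted p = 0.538 against all control libraries). Tfe3 had 484, 507, 1093 and 1056 in the control and 577, 642 and 369 in the mutant libraries. The control pairs differed more than 2-fold (2.17), and Tfe3 fell by 1.06 (SE 0.24) on the log2 scale against control 3 and 4 (limma adjusted p = 0.0104), while the difference from control 1 and 2 was 0.06 (SE 0.25, limma adjusted p = 0.965).

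Against control 3 and 4, 6 members rose and 6 fell, or 17.6% in each direction, beside 19.7% and 22.8% of all genes tested, so the share of members was close to the background. Those that rose were Ctsl, Ctsz, Npc2, Gabarap, Gabarapl2 and Atg5, and those that fell were Tfe3, Ulk1, Ulk2, Wipi2, Atg7 and Atg16l1. Most of these calls were lost without control 3 or without control 4. Each of these fits leaves 1 library in that arm, so a lost call does not show that a difference rests on 1 control library. The log2 differences of all 12 kept their direction in every alternative, such as 0.79 to 1.09 for Gabarapl2, 0.50 to 0.54 for Atg5 and -1.22 to -0.82 for Tfe3. Without mutant 1, Ctsl, Gabarap, Atg5, Atg7 and Atg16l1 lost their calls (limma adjusted p = 0.065 to 0.098), which left 7, and without mutant 2 the count was 20. Among the 138 other genes of these pathways described below, 15 rose and 33 fell without mutant 1, and 38 and 61 without mutant 2. The count over all genes also moved with the library left out, so these counts cannot be read as a result about the members. EdgeR called the same 12 members. DESeq2 called 16, adding Lamp1, Mcoln1, Map1lc3b (adjusted p = 0.0248) and Gabarapl1 (adjusted p = 0.0379). Of the 138 other pathway genes, 34 rose and 47 fell with edgeR, and 36 and 50 with DESeq2. Against control 1 and 2 none of the 34 members passed with limma, edgeR or DESeq2, where 0.318% of all genes did with limma. An unadjusted limma p under 0.05 was found there for 5 members, beside 1539 of the 16047 genes tested. There 30 of 34 members had a log2 difference above 0, with a median of 0.18, compared with 19 of 34 and 0.10 against control 3 and 4. Of the 16047 genes tested, 8025 and 7989 were above 0 in these comparisons. Mutant 3 alone was above control 1 and 2 for 25 of 34 members, with a median of 0.09. All 3 mutant libraries were above both control libraries for 13 members and below for 1 against control 1 and 2, beside 13.9% and 12.4% of all genes. For control 3 and 4 these counts were 16 and 12 members, beside 33.8% of all genes in each direction. Mutant 1 and 2, whose titles carry numbers of the same series as control 3 and 4, were also compared with that pair alone. There 6 members rose and 6 fell, beside 16.4% and 21.1% of all genes (37.5% together), and this comparison shares its libraries with the one before. Whether the title series marks a batch is not stated in the sources used here.

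**Figure D3:**
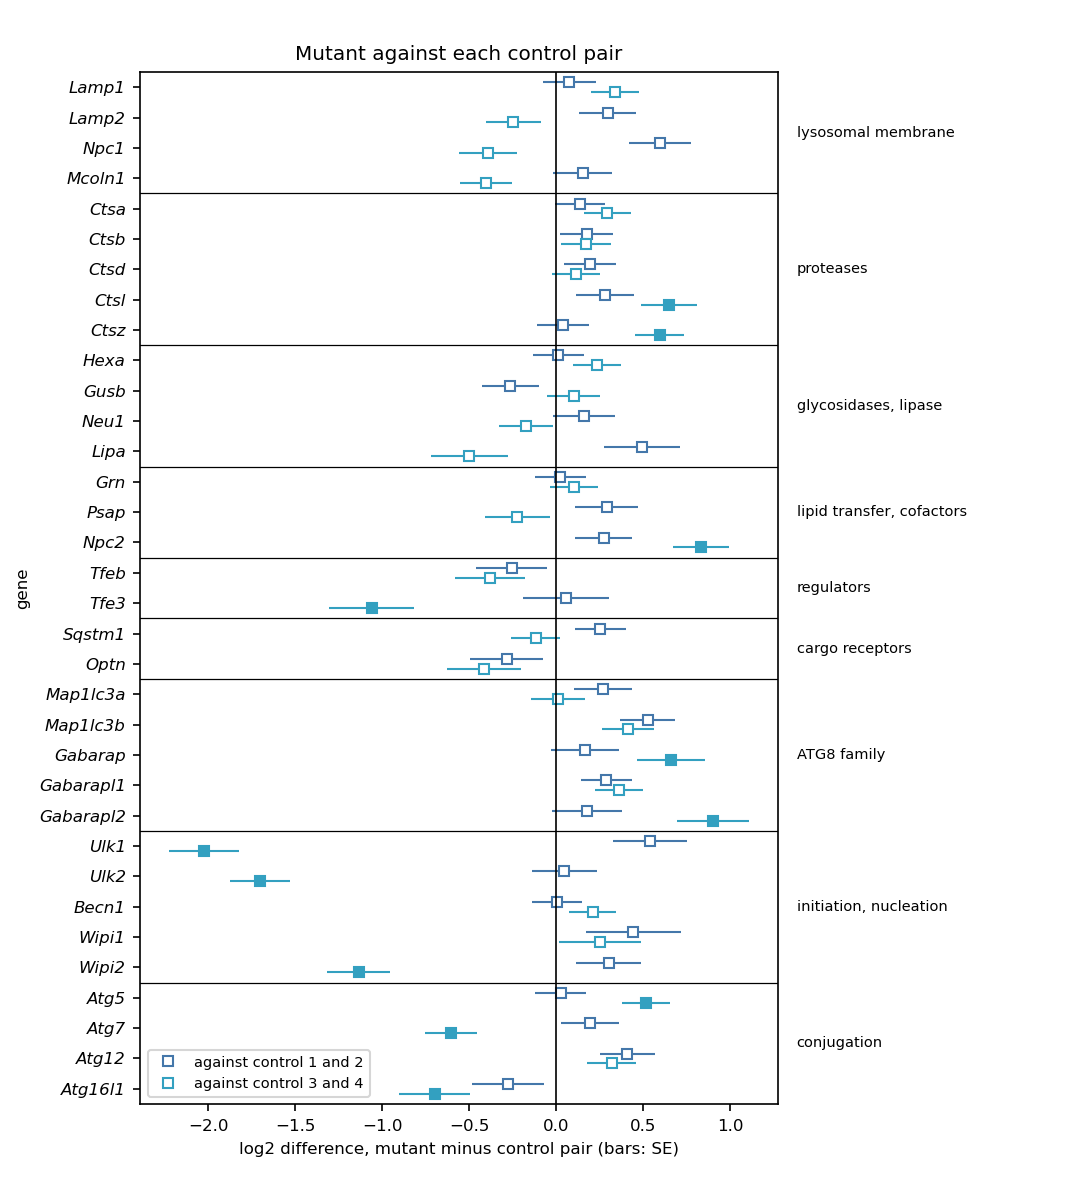
Log2 difference of the 3 mutant libraries from control 1 and 2 (dark) and from control 3 and 4 (light) for the 34 members, with SE bars from limma; filled squares have an adjusted p under 0.05. The 5 proteases and 5 ATG8 genes are at or right of 0 against both pairs, and Ulk1, at 0.54 and -2.02, has the widest separation.

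Among the genes that start autophagy, Ulk1, Ulk2 and Wipi2 differed more between the control pairs than between the mutant libraries and control 1 and 2. Ulk1, the kinase that starts autophagosome formation, had 482, 528, 2895 and 3074 normalized counts in control 1 to 4 and 696, 931 and 609 in mutant 1 to 3. Control 3 and 4 exceeded control 1 and 2 by 5.91-fold (log2 2.56, SE 0.11, limma adjusted p = 9.8e-07), and the mutant libraries were just above the lower pair. Ulk1 fell by 2.02 (SE 0.20) against control 3 and 4 (limma adjusted p = 0.000454) and stood 0.54 (SE 0.21) above control 1 and 2 (limma adjusted p = 0.457). With the length slope of each library as a covariate, its log2 difference from all control libraries went from -0.74 to 0.38.

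Ulk2, a related kinase, had 642, 691, 2300 and 2179 normalized counts in the control and 666, 808 and 605 in the mutant libraries. The mutant libraries surrounded control 1 and 2 (log2 0.05), and against control 3 and 4 Ulk2 fell by 1.70 (SE 0.17, limma adjusted p = 0.000511). Wipi2, which binds the phospholipid made at the forming membrane and recruits ATG16L1, had 1460, 1552, 4235 and 3909 in the control and 1798, 2261 and 1570 in the mutant libraries. It fell by 1.13 (SE 0.18) against control 3 and 4 (limma adjusted p = 0.00302) and was 0.30 (SE 0.18) above control 1 and 2 (limma adjusted p = 0.661). Wipi1, a relative of Wipi2, had 186 to 285 normalized counts in the control and 258 to 402 in the mutant libraries, with overlapping groups. Becn1, which encodes beclin, a subunit of the lipid kinase complex, had 3286, 3250 and 3270 in the mutant libraries, within the control range of 2801 to 3337.

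Of the 4 conjugation genes, Atg5 rose and Atg7 and Atg16l1 fell against control 3 and 4. Atg12, a ubiquitin-like protein joined to ATG5, had 1696, 2029, 1973 and 1973 normalized counts in the control and 2619, 2353 and 2424 in the mutant libraries. Control 1 was the lowest library, and every mutant library was above all 4, by 0.36 (SE 0.15, limma adjusted p = 0.538), with log2 differences of 0.41 and 0.32 against the pairs. Atg5, its partner, had 2128, 2005, 1449 and 1488 in the control and 2123, 2038 and 2153 in the mutant libraries. The mutant libraries were level with control 1 and 2 (log2 0.03), and Atg5 rose by 0.52 (SE 0.14) against control 3 and 4 (limma adjusted p = 0.0179). Atg7, the activating enzyme of both conjugation systems, had 1370, 1169, 2278 and 2127 in the control and 1436, 1592 and 1328 in the mutant libraries. It fell by 0.60 (SE 0.15) against control 3 and 4 (limma adjusted p = 0.0141) and was 0.19 above control 1 and 2 without passing. Atg16l1, which directs the ATG12-ATG5 conjugate to the membrane, had 897, 988, 1333 and 1193 in the control and 734, 983 and 651 in the mutant libraries. Mutant 1 and 3 were below all control libraries, and Atg16l1 fell by 0.70 (SE 0.20) against control 3 and 4 (limma adjusted p = 0.0251), with -0.28 (SE 0.21) against control 1 and 2.

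The cargo receptors differed from each other. Optn, which encodes optineurin, a receptor for damaged mitochondria and bacteria, had 571, 505, 654 and 527 normalized counts in the control and 471, 505 and 360 in the mutant libraries. It was the member with every mutant library below every control library, but the gap between control 2 and mutant 2 was less than 1 normalized count. The log2 difference was -0.35 (SE 0.20, limma adjusted p = 0.538). Sqstm1, which encodes p62, the receptor for ubiquitinated cargo, had 6284, 5879, 7478 and 8278 in the control and 7207, 7589 and 6976 in the mutant libraries. The mutant libraries were above control 1 and 2 and overlapped control 3 and 4, with log2 differences of 0.25 and -0.12 that did not pass.

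Between the control pairs, 12 members were higher and 7 lower in control 3 and 4. The higher ones were Lamp2, Npc1, Mcoln1, Lipa, Psap, Tfe3, Sqstm1, Ulk1, Ulk2, Wipi2, Atg7 and Atg16l1, and the lower ones were Ctsl, Ctsz, Gusb, Npc2, Gabarap, Gabarapl2 and Atg5. As a share of 34 these are 35.3% and 20.6%, beside 29.6% and 25.3% of all genes. In a fit that took its spread from all 7 libraries, Ctsl, Gusb, Sqstm1, Gabarap and Atg16l1 lost this call. The difference between the pairs went with exonic length across the members (Spearman's rho 0.57, n = 34 genes) and across all tested genes with a length (rho 0.51, n = 15770); these points share the same 4 libraries and are not independent. Wipi2 and Npc1, with 10543 and 11317 exonic bases, were higher in control 3 and 4 by 1.43 and 0.99 on the log2 scale. Gabarapl2 and Ctsz, with 2325 and 1441 bases, fell by 0.72 and 0.55 on that scale. Exonic length here counts every base in any annotated exon of a gene, so it can exceed the length of the transcripts present. Map1lc3b, with 7517 bases, differed by 0.12 on the log2 scale between the pairs, and Npc2, with 5438 bases, by -0.56. The transcript Map1lc3b-201, which held most of the FPKM of its gene, is much shorter than that exonic length. The part of length in the differences from the mutant was not tested beyond the fit with the length slope.

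**Figure D4:**
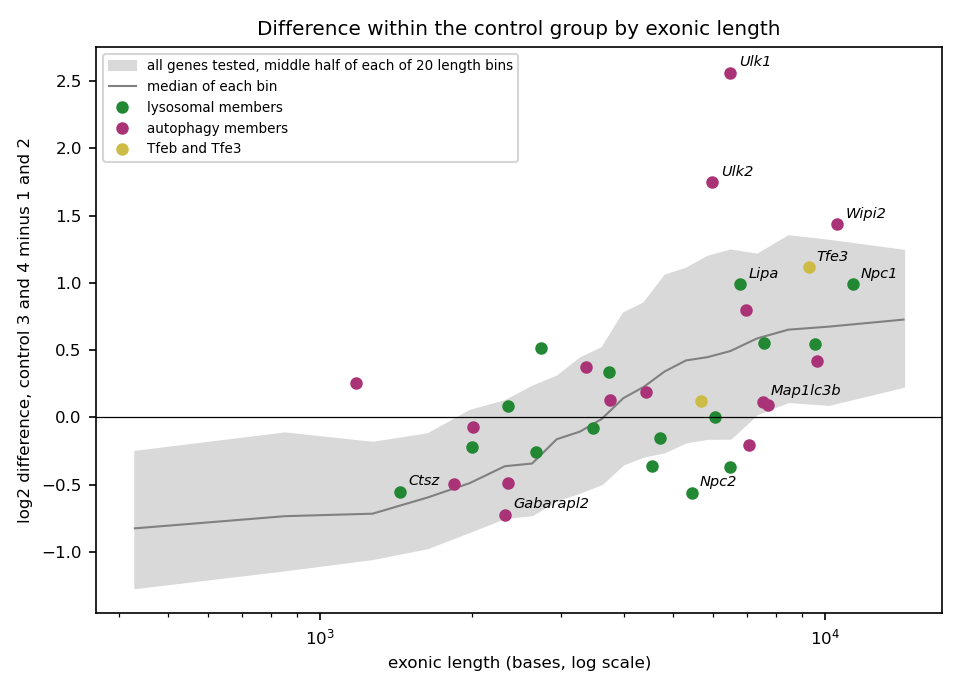
Log2 difference of control 3 and 4 from control 1 and 2 against exonic length in bases on a log axis; coloured points are members, the grey line is the median and the band the middle 50% of all tested genes in 20 length bins. Ulk1 and Ulk2, at 2.56 and 1.75, lie far above the band, and Npc2 and Map1lc3b near or below its lower edge.

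Per length, Ctsd led the members in each group, and lysosomal and autophagy genes shared the next places. Median FPKM over the 7 libraries was 209 for Ctsd, 169 for Lamp1, 156 for Gabarap, 141 for Map1lc3b and 140 for Gabarapl1. By group mean, Lamp1 came second in control 1 and 2, Sqstm1 in control 3 and 4 and Map1lc3b in the mutant libraries, and the ranges of Gabarap, Map1lc3b and Gabarapl1 over libraries overlapped. At the other end Ulk1, Wipi1 and Ulk2 had medians of 4.94, 4.93 and 4.17 FPKM. Ulk1 averaged 26.5 ± 2.05 FPKM (SD, n = 2) in control 3 and 4 and stood at 3.88 to 7.58 in the other 5 libraries. By group mean Map1lc3b ranked 6 among the members in control 1 and 2, 4 in control 3 and 4 and 2 in the mutant libraries. Its FPKM were 123 to 141 in the control and 167 to 206 in the mutant libraries, not scaled to the unequal totals of the libraries. As a share of those totals, Map1lc3b was lower in mutant 3 than in control 3.

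Single transcripts separated further than whole genes in several members. FPKM was given for 222 transcripts of the members, of which 96 passed the filter and were tested. No member transcript passed limma against all control libraries or against control 1 and 2. Against control 3 and 4, 8 rose and 10 fell, beside 12.2% and 10.3% of the 30156 transcripts tested. Every mutant library was above every control library for 9 of the 96 transcripts and below for 2, beside 4.27% and 3.82% of all transcripts. The protein-coding Map1lc3b-201 (2532 bases) had 117, 125, 108 and 109 FPKM in the control and 183, 150 and 175 in the mutant libraries. It rose against control 3 and 4 by 0.63 (SE 0.17, limma adjusted p = 0.041 on log2(FPKM + 1)), and the groups did not overlap. These FPKM were not scaled to the library totals. The totals were 464615 and 466064 in control 3 and 4 and 550983 to 728004 in the mutant libraries, and their part in this rise was not tested.

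Ctsl-204, a short coding model of the cathepsin L gene (698 bases), had 0.658, 0.439, 0.76 and 1.14 FPKM in the control and 4.97, 2.69 and 5.16 in the mutant libraries. All mutant libraries were above all control libraries, and it rose by a log2 difference of 1.4 (SE 0.30) against control 3 and 4 (limma adjusted p = 0.0289) without passing against control 1 and 2 (log2 1.73, limma adjusted p = 0.37). It is a minor transcript, since the whole gene had 37.9 to 65.5 FPKM. Tfe3-201 and Atg16l1-201 were the transcripts with every mutant library below control. Atg16l1-201 had 5.16, 5.09, 5.39 and 5.62 FPKM in the control and 3.28, 4.22 and 2.67 in the mutant libraries.

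Transcripts of a single gene could differ between the control pairs in unlike ways. Lamp2-202 (3604 bases) had 32.4 and 30.1 FPKM in control 1 and 2 and 54.3 and 52.4 in control 3 and 4, while Lamp2-201 (1769 bases) went from 22.5 and 20.4 to 17.6 and 13.9. Wipi2-201 (5171 bases) went from 6.66 and 6.97 to 25.8 and 22.1, and Wipi2-202 (1959 bases) from 7.75 and 8.05 to 9.62 and 10.4. In both genes the longer model was the one far higher in control 3 and 4. Transcripts annotated with a retained intron were among the most uneven. Map1lc3b-202 had 0.172 and 0.381 FPKM in control 1 and 2, 5.93 and 8.18 in control 3 and 4, and 0.281, 1.38 and 0.401 in the mutant libraries. Sqstm1-207 had 13.7 and 5.42 in control 3 and 4, at most 0.256 in control 1 and 2, and 1.59, 2.1 and 0.48 in the mutant libraries. Of the 24 retained-intron transcripts of members, both libraries of control 3 and 4 were above both of control 1 and 2 for 12 and below for 5, beside 29.3% and 35.4% of the 5748 such transcripts of all genes. For the 64 protein-coding transcripts of members the counts were 27 and 21, beside 35% and 39.8%. FPKM of single transcripts are estimates that divide shared reads, and the depth behind each is not known. They were also not scaled to the unequal FPKM totals of the libraries.

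**Figure D5:**
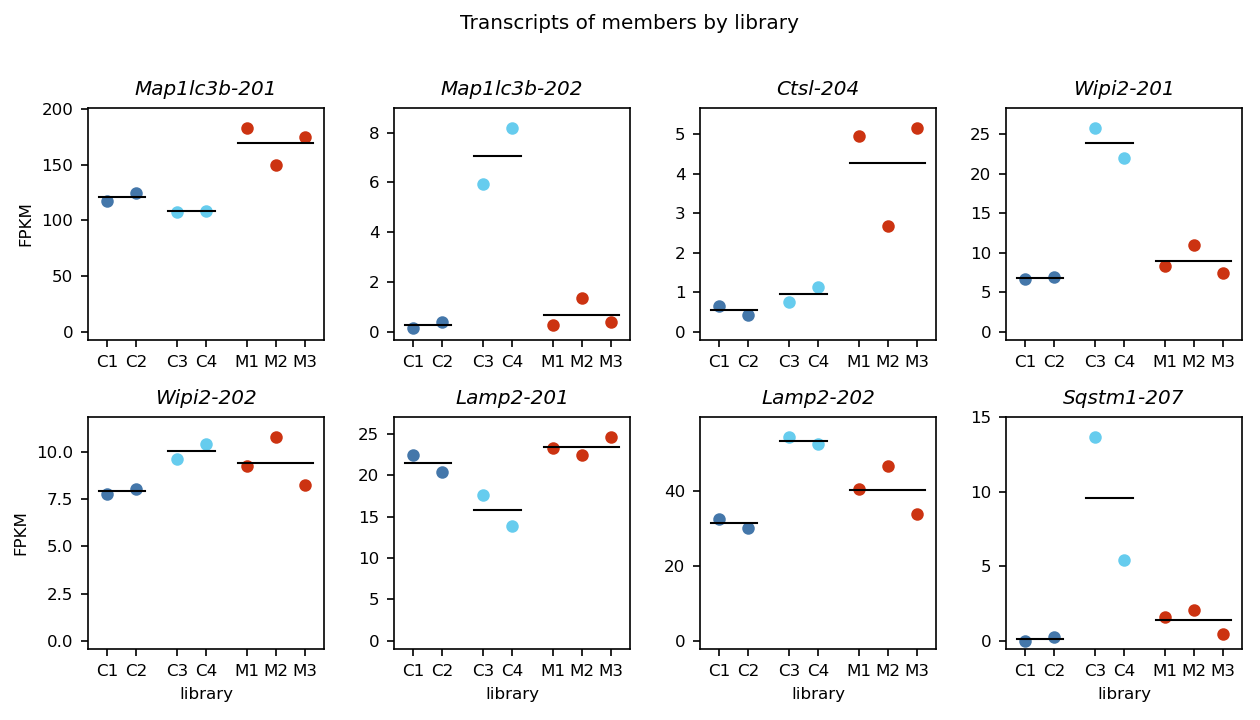
FPKM of 8 transcripts of members in control 1 to 4 (C1 to C4) and mutant 1 to 3 (M1 to M3); points are libraries and lines are means of control 1 and 2, control 3 and 4, and the mutant libraries. Map1lc3b-201 and Ctsl-204 are highest in the 3 mutant libraries, while Map1lc3b-202, Wipi2-201 and Sqstm1-207 are highest in control 3 and 4.

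Other genes of these pathways, 138 genes in 10 lists chosen by role, were read the same way. None passed with limma against all control libraries or against control 1 and 2. In these comparisons 8 and 9 had an unadjusted limma p under 0.05, beside 1365 and 1539 of the 16047 genes tested. Against control 3 and 4, 36 rose and 47 fell. For this and the lists that follow, the shares of all genes tested were 19.7% higher and 22.8% lower. Of these 83 calls 48 remained without mutant 1. Fewer remained without control 3 or without control 4, fits that leave 1 library in that arm. Their median log2 differences were 0.0058 against all control libraries, 0.10 against control 1 and 2, and -0.09 against control 3 and 4. Of the 16 tested subunits of the V-ATPase, the proton pump that acidifies lysosomes, 9 rose and 3 fell against control 3 and 4. Atp6v1f had 4177, 4668, 2231 and 2066 normalized counts in the control and 5062, 3459 and 6547 in the mutant libraries. It rose by 1.18 (SE 0.25, limma adjusted p = 0.00743) against control 3 and 4, with 0.14 against control 1 and 2. The call was lost without control 3 or control 4, fits that leave 1 library in that arm. Atp6v1g1 rose as well (log2 0.85), while Atp6v0a1 and Atp6v0a2, which encode forms of the large membrane subunit, fell (log2 -1.18 and -1.35). Of 33 other lysosomal hydrolases, 30 had log2 differences above 0 against control 1 and 2, with a median of 0.22, though mutant 3 alone was above that pair for 14 of them, with a median of -0.04. In the comparison with control 3 and 4, 6 rose and 7 fell. Ctsf, which encodes cathepsin F, had 963, 1320, 2139 and 1962 in the control and 2494, 2044 and 1986 in the mutant libraries. It was above control 1 and 2 by 0.94 (SE 0.19, limma adjusted p = 0.101, and 0.00258 with DESeq2) and level with control 3 and 4 (log2 0.08). Against control 3 and 4 Aga, the aspartylglucosaminidase, rose (log2 0.79), and Galc, Ids and Gaa, hydrolases of galactolipids, glycosaminoglycans and glycogen, fell by 0.91 to 1.42 on the log2 scale.

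Of 15 other lysosomal membrane proteins, 4 rose and 2 fell against control 3 and 4. Laptm4a had 9399, 9630, 5192 and 5594 normalized counts in the control and 11771, 9848 and 10960 in the mutant libraries, so that every mutant library was above every control library. It rose by 1.01 (SE 0.15, limma adjusted p = 0.0021) against control 3 and 4 and was 0.19 above control 1 and 2. Cd63, a tetraspanin of lysosomes and secretory granules, rose there by 1.06 (SE 0.22, limma adjusted p = 0.00693), as did Tmem192 (log2 0.82), and Tpcn2, a cation channel, fell by 0.74. Fits without control 3 or without control 4 leave 1 library in that arm, and there Laptm4a kept its call and Cd63 lost it. Of 9 genes that tag and sort hydrolases by mannose 6-phosphate, 1 rose and 5 fell against control 3 and 4. Igf2r, the mannose 6-phosphate receptor, fell by 2.46 (SE 0.22, limma adjusted p = 0.000341) and was at -0.04 against control 1 and 2. Sort1, the sorting receptor sortilin, Gnptab, which encodes subunits of the enzyme that starts the tag, and Gga3, an adaptor, fell there by 2.03, 1.79 and 1.47. Of 17 genes of nutrient sensing at the lysosome, 7 rose and 8 fell, with Tsc2, an inhibitor of mTORC1, at -2.73 and 0.10 against the pairs and Mtor, the kinase of that complex, at -1.75 and -0.32. Rptor, a subunit of mTORC1, fell by 1.75 against control 3 and 4, and Rraga, a GTPase that recruits it to lysosomes, rose by 1.46.

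Of 14 other genes of initiation and nucleation, 3 rose and 8 fell against control 3 and 4, and Atg2a, a lipid transfer protein of the growing membrane, was at -2.59 and 0.36 against the pairs. Its relative Atg2b was at -2.36 and 0.15, and Ambra1, a regulator of beclin, and Pik3r4, a subunit of the lipid kinase complex, fell by 2.15 and 1.82 against control 3 and 4. Of 13 genes of fusion with the lysosome, 1 rose and 7 fell, with Plekhm1, an adaptor on lysosomes, at -2.03 and 0.36. Epg5, a tether for fusion, was at -1.61 and -0.26, and Tecpr1 and Vps39 fell by 1.39 and 1.28. Of 10 other cargo receptors, 3 rose and 4 fell, with Wdfy3, a large scaffold for protein aggregates, at -2.08 and -0.05 and Tollip, a receptor that binds ubiquitin, at -1.13 and -0.02. Nbr1, a relative of p62, and Calcoco1 fell by 1.46 and 1.11 against control 3 and 4, and Fundc1, a receptor on mitochondria, rose by 0.60. Of 6 other genes of conjugation and ATG8 processing, 2 rose and 3 fell. Atg3, the enzyme that couples ATG8 proteins to lipid, rose by 0.66, and Atg4b and Atg4c, proteases that process them, fell, Atg4b by 0.49. Atg10, the enzyme that joins ATG12 to ATG5, had 498, 534, 504 and 469 normalized counts in the control and 719, 672 and 965 in the mutant libraries. Its control pairs were alike and every mutant library was above them, by 0.63 (SE 0.19, limma adjusted p = 0.538) against all control libraries. The difference was 0.59 (SE 0.20, limma adjusted p = 0.376) against control 1 and 2. Atg10 rose by 0.67 (SE 0.20, limma adjusted p = 0.0272) against control 3 and 4, a call lost without mutant 1. The call was also lost without control 3 or control 4, fits that leave 1 library in that arm. None of 5 other transcription factors of the pathway passed, and Mitf and Zkscan3 had log2 differences of 0.29 and 0.25 against control 1 and 2 and 0.04 and -0.09 against control 3 and 4.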

How the data were processed

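Per the labels' protocols, RNA came from a PicoPure kit and cDNA from a SMART-Seq v4 kit, and the sheared, unstranded libraries were made with a Swift kit. The submitters' processing notes list the GRCm38 build and, as tools, STAR 2.7.3a, HTSeq 0.6.1, Cufflinks 2.2.1, FastQC 0.11.7 and DESeq2 1.12.4, without their options. The authors deposited a gene signal in normalized counts for 19649 genes. In every library 100% of these values were whole multiples of a step (tolerance 0.01 reads), so whole reads and size factors were recovered. The authors also deposited FPKM for 66660 transcripts, summed here over the transcripts of a gene to compare levels per length. Positions and exonic lengths came from GENCODE vM21 (GRCm38), which matched 19237 genes (97.9%) and 66303 transcripts (99.5%), and promoters from RefSeq (GRCm38.p6).

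A gene was tested if at least 3 libraries reached a normalized count of 10 (16047 genes). Tests used limma 3.58.1 (R 4.3.3), a variance trend and log2 values after adding a pseudocount of 1, which understates changes of low genes. They were two-sided, with Benjamini-Hochberg adjustment over all genes and a threshold of 0.05, and each comparison used only its own libraries. Transcripts were tested likewise where at least 3 libraries reached 1 FPKM (30156). Alternatives were edgeR 4.0.16 and DESeq2 1.42.0 on the recovered reads, a pseudocount of 8 (0.1 for FPKM), no filter, TMM scaling, each library left out, the length slope of each library as a covariate, a fit with 3 groups and, added after seeing the data, the series of the titles as a term. The fits were tested on simulated data with 1 dispersion for all genes and no split within the control group. That test does not show how the fits behave with the split seen here. Reads without molecular identifiers are not independent molecules.

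The members and lists were chosen with earlier results of these data known. The naming rule took all members, Calr and, in each other list, the 2 genes with the largest difference from all control libraries plus up to 4 called genes. A gene that this rule took is not reported here.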

Additional observations from a re-analysis of the deposited data

Results flagged for a closer look

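Among the 34 members, 1 had a control library far from the others by Dixon's criterion for 4 samples. Atg12 had 1696 normalized counts in control 1 and 1973 to 2029 in control 2, 3 and 4, and the gap was 0.832 of the range, just over the critical value. Chance flags about 1 in 20 groups, and 34 were examined. Without control 1 the log2 difference of Atg12 from all control libraries was 0.31, and from control 2 alone it was 0.28.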

How the results depend on the processing

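No paired analysis was possible because the labels share no replicate number between the groups. The series of the titles, which both groups share, was added as a term after the data were seen, and against all control libraries it gave 3597 genes and 8 members, with Lamp2 at -0.049 and Psap at -0.047. Limma's 0 calls over all genes against all control libraries became 107 with DESeq2 and 127 with the length slope added as a term, and stayed 0 with edgeR; members were called 0 times in each of these. Against control 1 and 2, 51 genes were called, 21 with edgeR, 287 with DESeq2 and 0 to 769 with a library left out, and the members called were 0 to 2. Against control 3 and 4 the library left out moved the count of genes from 1483 to 8760 and of members from 3 to 20. Against all control libraries, members with no overlap between the groups ranged from 6 to 12 above and 1 to 3 below with a library left out. Over all genes tested these shares were 6.26% to 15.0% above and 5.13% to 14.4% below.

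With that slope as a term, log2 differences from all control libraries turned positive for Mcoln1 (0.13), Neu1 (0.16), Lipa (0.48), Tfe3 (0.037), Ulk1 (0.38), Wipi2 (0.23), Atg7 (0.15), Atg2a (0.12), Atg4c (0.018), Tollip (0.019) and Plekhm1 (0.23); the cause was not tested. EdgeR turned Lamp2 against all control libraries (-0.0025), Becn1 against control 1 and 2 (-0.0022), Tollip there (0.060; DESeq2 0.064) and Map1lc3a against control 3 and 4 (-0.0038; TMM scaling -0.0032).

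Leaving out libraries changed the sign of values near 0. Against all control libraries the ranges were Lamp2 -0.092 to 0.13, Npc1 -0.073 to 0.29, Gusb -0.18 to 0.019, Neu1 -0.12 to 0.057, Lipa -0.21 to 0.21, Psap -0.082 to 0.19 and Sqstm1 -0.0094 to 0.16. Against control 1 and 2 they were Lamp1 -0.013 to 0.17, Ctsz -0.027 to 0.11, Hexa -0.058 to 0.081, Grn -0.026 to 0.072, Tfe3 -0.10 to 0.30, Ulk2 -0.069 to 0.14, Becn1 -0.030 to 0.042, Atg5 -0.017 to 0.069, Atp6v1f -0.077 to 0.38, Igf2r -0.25 to 0.16, Tsc2 -0.17 to 0.31, Atg4c -0.010 to 0.21, Wdfy3 -0.24 to 0.13 and Tollip -0.32 to 0.29. Against control 3 and 4 they were Map1lc3a -0.080 to 0.10, Ctsf -0.024 to 0.14 and Mitf -0.038 to 0.12. Map1lc3b kept its direction in every setting, at 0.41 to 0.53 against all control libraries.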
